A study of Mus musculus with 192 samples.

Results

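The spleens of 12 WT mice are described here, 6 flown on the International Space Station (FL_WT) and 6 kept on the ground (GC_WT), out of 192 libraries from 9 tissues in the whole series. Members were taken from the labels alone, as every spleen library with genotype WT, and none was left out. All mice were males labelled C57BL/6 (C57BL/6J in the study's methods) and 12 weeks of age, housed one per cage. The methods give 12 weeks as the age of the flight mice before launch, so they were older at dissection. FL_WT mice spent about a month in orbit and were dissected in California after splashdown and transport. GC_WT mice went through a simulation of the flight in Japan months later, in the same kind of cage. Both groups had behavioural tests and tail bleeds and were killed under isoflurane, and exsanguination is stated for the flight mice only. The methods describe a switch to flight food for the flight mice before launch. For the ground mice they name only the feed that flight mice had before that switch. Flight, landing, transport, place, date, dissection and any difference in food therefore coincide and cannot be told apart in this comparison. Nrf2-KO spleens of both conditions (GC_KO with 6 mice, FL_KO with 5 after FL04, a mouse with intestinal haemorrhage, was left out as by the authors) entered the same fit and serve only for comparison. A flight and a ground mouse with the same number are different animals.

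The spleen filters blood in its red pulp, where macrophages take up old red cells and recycle their iron, and holds B and T cells in its white pulp. In the mouse it also makes red cells, and this output grows when the body needs more of them. Maturing erythroblasts build a membrane skeleton of spectrin and ankyrin tied to band 3, load haem and globin, and lose their nucleus. A capsule of smooth muscle covered by mesothelium encloses the organ, with trabeculae and stromal cells inside. In bulk tissue, fewer cells of a type and less RNA per cell cannot be told apart.

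The tissue label was checked against marker lists. The summed level of 15 B cell genes was 14469 to 28326 TPM (a share of all transcripts, corrected for transcript length) in GC_WT and 16391 to 27013 TPM in FL_WT. The 17 red pulp macrophage and iron genes summed to 7836 to 8966 TPM in GC_WT and 7831 to 9329 TPM in FL_WT, so both markers of spleen were high in all 12 libraries. Total expected counts were 13110740 to 13449162 per library in GC_WT and 13357709 to 13712618 in FL_WT. A few libraries held transcripts of neighbouring tissue. The 22 exocrine pancreas genes summed to 1244 TPM in flight mouse 08 and to 9.99 to 16.9 TPM in the other 11. The 17 white fat genes summed to 356 TPM in flight mouse 06 and to 153 to 201 TPM elsewhere. A list of 12 hepatocyte genes, chosen after the values were seen, summed to 343 TPM in ground mouse 03 and was highest at 71.2 TPM in FL_WT. Counts of changed genes are given with and without flight mice 06 and 08.

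**Figure D1:**
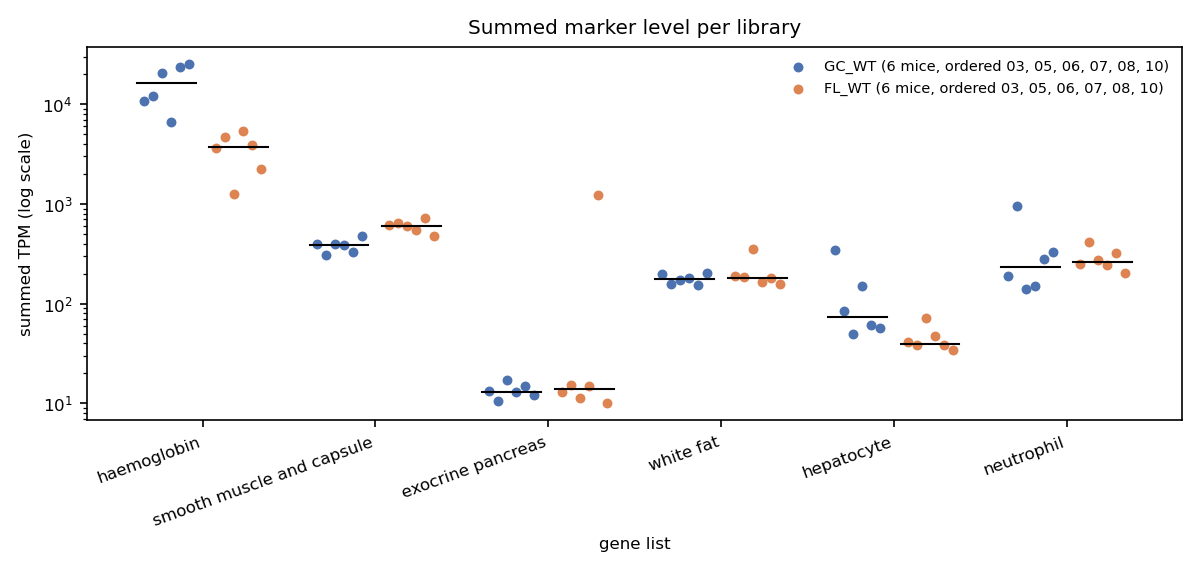
Summed TPM of 6 marker lists in each library on a log axis, with GC_WT in blue and FL_WT in orange, mice in the order 03, 05, 06, 07, 08, 10 and a bar at the group median. The haemoglobin sums of FL_WT lie at 1272 to 5363 TPM, below all GC_WT sums of 6639 to 25458 TPM, and flight mouse 08 stands alone at 1244 TPM for exocrine pancreas.

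Of 16170 genes tested by edgeR's quasi-likelihood test, 366 (2.26%) were called, 186 (1.15%) higher and 180 (1.11%) lower, in FL_WT at a Benjamini-Hochberg adjusted p under 0.05. At an unadjusted p under 0.05, 1308 of the 16170 genes were higher and 1433 lower. As 2.26% of all genes were called, a short list with no call is not set apart from other genes. Most differences among the called genes were small. Only 11 of the higher genes differed by 1 or more on the log2 scale, against 32 of the lower genes, and 17 of those 32 belonged to the erythroid lists. Without flight mice 06 and 08, with 4 FL_WT libraries left, 24 genes were called higher and 16 lower, and all 24 and all 16 were among the calls with 12 libraries. Leaving out single libraries moved the counts between 59 (without flight mouse 08) and 288 (without flight mouse 10) for higher genes, and between 34 (without flight mouse 06) and 506 (without flight mouse 10) for lower genes.

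Red cell genes were lower in flight. Of 59 tested genes in 5 erythroid lists (62 listed), 20 were called lower and none higher, beside 1.11% lower among all genes. The median of the 59 log2 fold changes was -0.49, beside 0.003 over all genes tested, and 54 of the 59 were below 0. In 15 of the 59 the FL_WT libraries all lay below the GC_WT libraries, as they did in 0.594% of all genes. Without flight mice 06 and 08 the median was -0.53 and 7 genes were called lower, and without any single mouse 13 to 23 genes were called. The lists were drawn up with a lower erythroid signal already known from these data, so their direction is no independent evidence.

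The start regions of 4 of these genes are shown because GATA1, the main erythroid transcription factor, binds GATA sequences. Each line gives the 250 bases before the RefSeq start (GRCm38.p6), read 5′ to 3′ on the gene's strand. Capitals mark AGATAA or its reverse TTATCT, and CCACACCC or its reverse GGGTGTGG, a sequence of the kind bound by KLF1.
Alas2 (chrX:150547167-150547416, plus strand): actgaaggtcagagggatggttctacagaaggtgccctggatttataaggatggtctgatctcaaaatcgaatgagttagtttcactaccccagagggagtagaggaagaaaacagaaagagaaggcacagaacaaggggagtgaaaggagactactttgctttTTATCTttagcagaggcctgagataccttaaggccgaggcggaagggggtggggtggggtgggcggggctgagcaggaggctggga
Hbb-bs (chr7:103827929-103828178, minus strand): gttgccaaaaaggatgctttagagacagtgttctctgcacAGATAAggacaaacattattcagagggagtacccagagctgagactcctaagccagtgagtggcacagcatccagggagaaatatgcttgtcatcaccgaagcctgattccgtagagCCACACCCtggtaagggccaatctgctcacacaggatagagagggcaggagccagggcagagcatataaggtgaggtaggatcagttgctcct
Trim10 (chr17:36869324-36869573, plus strand): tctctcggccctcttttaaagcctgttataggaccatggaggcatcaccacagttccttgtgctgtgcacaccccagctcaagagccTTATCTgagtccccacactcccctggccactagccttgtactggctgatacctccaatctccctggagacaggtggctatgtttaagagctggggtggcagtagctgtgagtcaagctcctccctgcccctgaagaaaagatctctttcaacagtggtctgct
Epb42 (chr2:121036878-121037127, minus strand): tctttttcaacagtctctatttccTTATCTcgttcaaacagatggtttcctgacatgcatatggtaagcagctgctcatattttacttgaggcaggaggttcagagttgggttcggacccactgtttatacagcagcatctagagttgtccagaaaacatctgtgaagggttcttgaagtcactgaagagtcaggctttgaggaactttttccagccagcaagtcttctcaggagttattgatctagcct
Counted back from the start, AGATAA or TTATCT begins at -86 in Alas2, -210 in Hbb-bs, -163 in Trim10 and -226 in Epb42, and the CCACACCC match in Hbb-bs begins at -93. Gene models of GENCODE vM21 for Alas2, Hbb-bs and Epb42 begin inside these windows. Of the 20 erythroid genes called lower, 14 had a start region in the table, with 15 windows in all. Of these 15 windows, 6 held AGATAA on either strand, beside 9.99% of 32851 start regions of the same length, and 1 held CCACACCC, beside 3.20%. The other windows with AGATAA were those of Kel and Rhd. These matches describe letters and do not show binding.

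Membrane and skeleton genes are given first. Of 18 tested, 10 were called lower, with a median log2 fold change of -1.99. Slc4a1 (chromosome 11, 102348824-102366203) encodes band 3, the anion exchanger to which the red cell skeleton is anchored. Its level was 2.86 to 66.0 TPM (median 19.1) in GC_WT and 0.58 to 1.57 TPM (median 0.87) in FL_WT. No FL_WT library reached the lowest GC_WT library, which was ground mouse 07, and the next GC_WT value was 14.1 TPM. The log2 fold change was -4.73 ± 0.74 (SE, n = 6 per group, edgeR adjusted p = 0.0024), or 26.5-fold lower.

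Epb42, protein 4.2 of the membrane skeleton, was at 0.33 to 7.53 TPM in GC_WT and at 0 to 0.30 TPM in FL_WT, with 0 in flight mouse 06 (log2 fold change -4.73 ± 0.84, edgeR adjusted p = 0.00467). Sptb, a spectrin gene, was called lower with a log2 fold change of -1.62, and Ank1, which encodes ankyrin, with -2.22. The mean levels of Sptb and Ank1 in FL_WT were 1.66 and 0.933 TPM. The blood group genes Kel and Rhd and the genes Tspo2 and Tmod1 were also called, at log2 fold changes of -2.92, -2.74, -2.98 and -1.75.

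**Figure D2:**
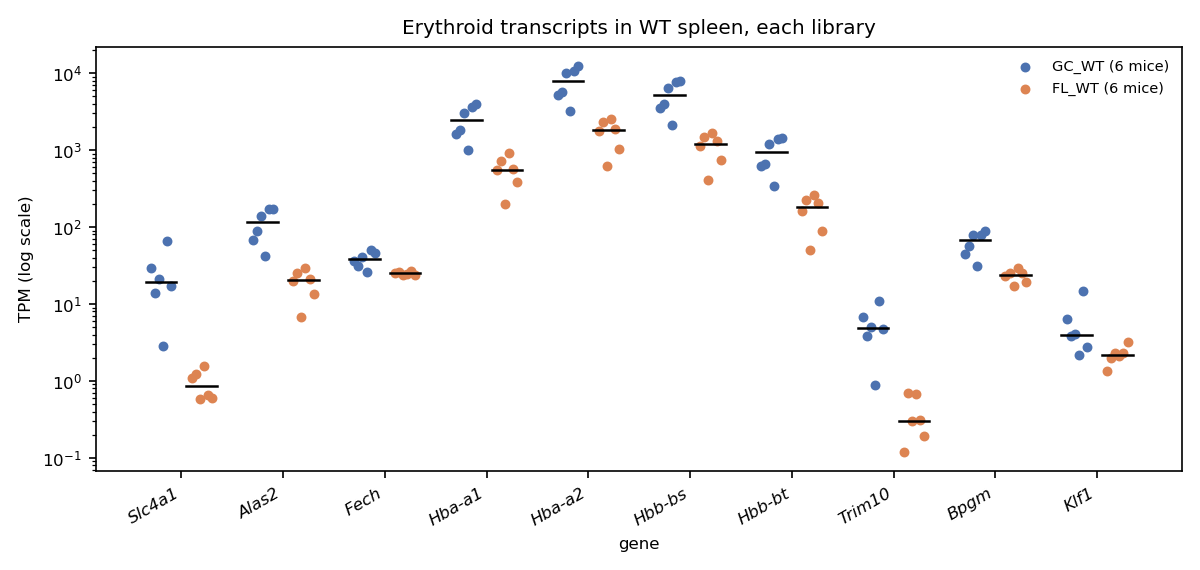
TPM of 10 erythroid genes in each WT spleen library on a log axis, with GC_WT in blue, FL_WT in orange and a bar at the group median. FL_WT points lie below all GC_WT points for every gene shown but Fech and Klf1, and for Slc4a1 the medians are 19.1 and 0.87 TPM.

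In haem synthesis, genes of the first and the last step were called lower. Alas2 (chromosome X, 150547375-150570638), the erythroid enzyme that starts haem synthesis, was at 41.7 to 173 TPM (median 115) in GC_WT and at 6.70 to 29.3 TPM (median 20.4) in FL_WT. The groups did not overlap, with flight mouse 06 lowest and ground mouse 08 highest. Its log2 fold change was -2.57 ± 0.40 (edgeR adjusted p = 0.00218), 5.92-fold lower. Fech, which inserts iron into the ring, was at 26.3 to 50.9 TPM in GC_WT and 23.8 to 26.6 TPM in FL_WT, with ground mouse 07 inside the FL_WT range (log2 fold change -0.63 ± 0.17, edgeR adjusted p = 0.0456). The Fech call was lost under 13 of 20 alternatives. EdgeR called these 2 genes and DESeq2 called 3 of 13 in the haem and iron uptake list, whose median was -0.20. Tfrc, the transferrin receptor, had a log2 fold change of -0.47 and did not pass (edgeR adjusted p = 0.0905).

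All 4 adult globin genes that could be tested were called lower. Hba-a1 and Hba-a2 are nearly identical, as are Hbb-bs and Hbb-bt in large part, so their split by the counting software is uncertain, and their sum is the safer measure. The haemoglobin list summed to 10940, 12143, 20720, 6639, 23559 and 25458 TPM in ground mice 03, 05, 06, 07, 08 and 10. In the flight mice of the same numbers, which are other animals, it summed to 3621, 4724, 1272, 5363, 3925 and 2247 TPM. Flight mouse 06, which holds white fat transcripts, was the lowest and ground mouse 07 the lowest of its group. The log2 fold changes were -2.20 ± 0.39 (Hba-a1), -2.23 ± 0.39 (Hba-a2), -2.24 ± 0.38 (Hbb-bs) and -2.51 ± 0.42 (Hbb-bt), with edgeR adjusted p of 0.0052, 0.0042, 0.00364 and 0.00334. Hba-x, Hbb-bh1 and Ahsp of the list were not tested. Without flight mice 06 and 08 the 4 log2 fold changes ranged from -2.34 to -1.99, and the adjusted p of Hba-a1 was then 0.0656.

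Globin transcripts reach every organ with blood. In the same WT mice, the 4 globin genes summed to lower levels in flight without overlap in brown fat (median 901 TPM in GC_WT and 421 TPM in FL_WT), cerebrum (473 and 193 TPM) and liver (642 and 276 TPM), with 6 mice per group. The kidney (1119 and 603 TPM) and mandibular bone (1389 and 446 TPM), with 3 mice per group, did not overlap either. Groups of 3 separate by chance more often than groups of 6, and the share of all genes without overlap was counted in spleen only. The ratio of medians was 1.86 to 3.12 in these 5 tissues and 4.36 in spleen. In temporal bone, which holds marrow, the medians were 58177 and 58112 TPM, and in thymus and epididymal white fat the groups overlapped too. How far blood left in the organ entered the spleen values was not tested.

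The factors that direct the lineage were examined next. Of 10 erythroid regulators edgeR called none and DESeq2 called 1 lower, 6 were lower at an unadjusted p under 0.05, and the median log2 fold change was -0.29. Klf1, the factor that activates adult beta globin, was at 2.15 to 14.7 TPM in GC_WT and 1.34 to 3.23 TPM in FL_WT, and the groups overlapped (log2 fold change -1.36 ± 0.44, edgeR adjusted p = 0.105). Gata1 and Tal1 had values of -0.54 and -0.49 (edgeR adjusted p = 0.29 and 0.28), and Epor, the erythropoietin receptor, 0.00.

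Of 14 genes for late maturation 4 were called lower. Trim10, a ubiquitin ligase family gene of terminal erythroblasts, was at 0.88 to 10.8 TPM in GC_WT and 0.12 to 0.70 TPM in FL_WT, with no overlap (log2 fold change -3.79 ± 0.61, edgeR adjusted p = 0.00259). Bpgm, which makes the phosphate that lowers the oxygen affinity of haemoglobin, was at 30.8 to 88.5 TPM in GC_WT and 17.2 to 28.9 TPM in FL_WT (log2 fold change -1.45 ± 0.27, edgeR adjusted p = 0.00694). Ube2o, which tags proteins for removal in reticulocytes, and Mkrn1 differed less, by -0.45 and -0.38. Specc1 and Cd300c were also among the 12 largest lower changes without overlap, at log2 fold changes of -0.67 and -0.82, and their calls were lost under 10 and 14 of 20 alternatives.

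Among 11 tested genes of early progenitors, edgeR called Myb and Kit lower and none higher, and DESeq2 called 3 lower and 1 higher. Myb, a factor of dividing blood progenitors, was at 20.58 to 25.06 TPM in GC_WT and 17.01 to 20.91 TPM in FL_WT, so that only flight mouse 08 entered the GC_WT range (log2 fold change -0.37 ± 0.066, edgeR adjusted p = 0.0052). Kit, the stem cell factor receptor, differed by -0.27 (edgeR adjusted p = 0.0381), a call lost under 13 of 20 alternatives. The 6 tested genes of stress erythropoiesis had no call and a median of 0.08, with Bmp4 at a mean of 18.6 TPM in FL_WT and 16.5 TPM in GC_WT. Of 43 DNA replication and mitosis genes none was called by edgeR, DESeq2 or limma, while edgeR called 2.26% of all genes. At an unadjusted p under 0.05, 6 of the 43 were lower, beside 1433 of all 16170 genes. The 20 mitosis genes all had negative log2 fold changes (median -0.26, lowest -0.50), and 20 of the 23 DNA replication genes were below 0. Cenpf, with the smallest p of the mitosis genes, had -0.48 (edgeR adjusted p = 0.168). None of 17 megakaryocyte and platelet genes was called, beside 2.26% of all genes. Their median was -0.17 and 16 of the 17 were below 0.

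**Figure D3:**
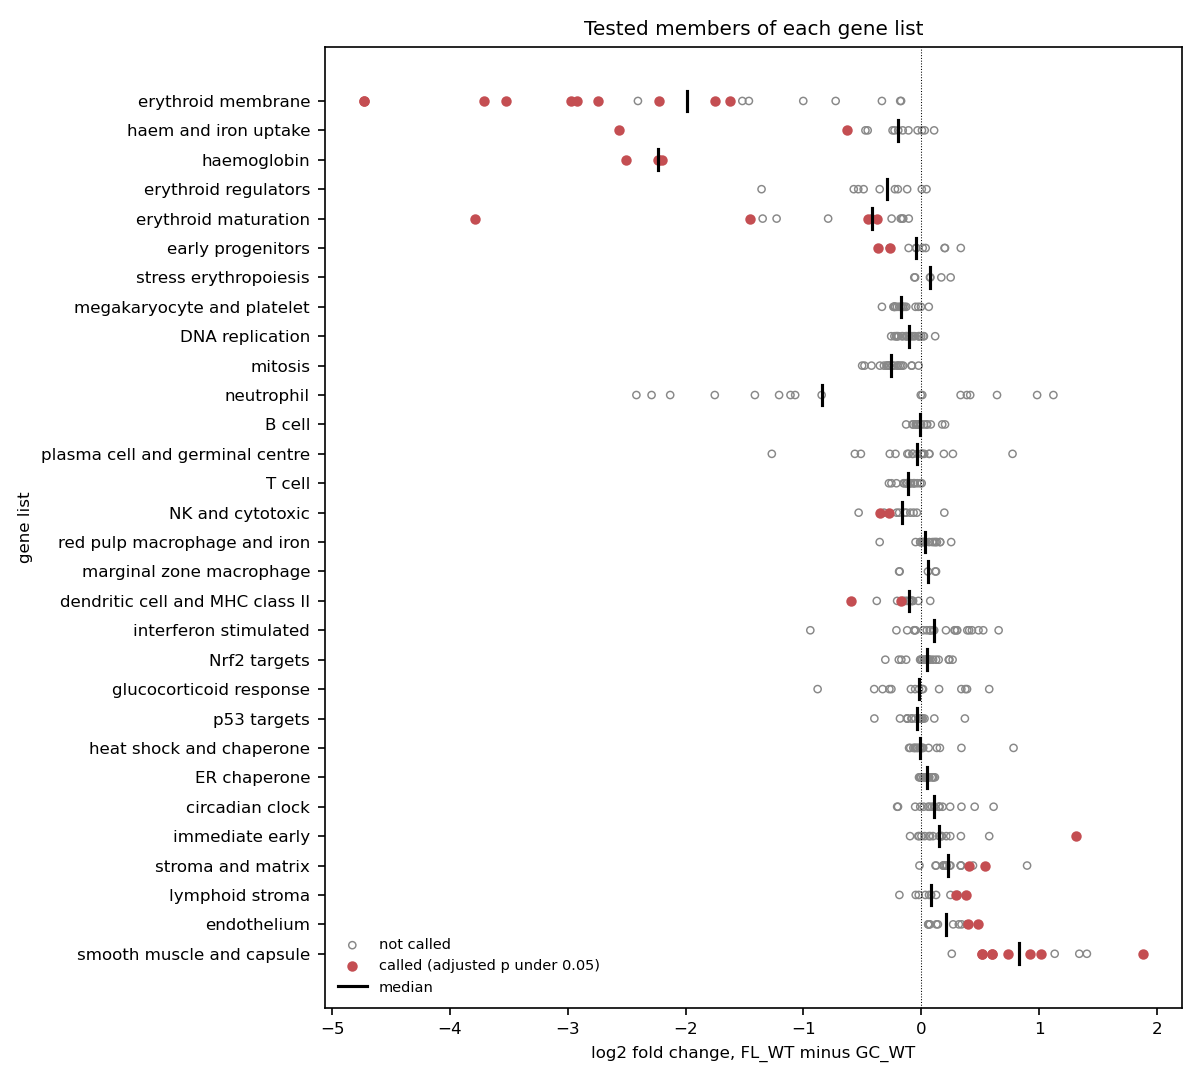
Log2 fold change of FL_WT minus GC_WT for each tested member of 30 gene lists, where filled red points are genes called at an adjusted p under 0.05, open points are others and bars are list medians. Erythroid lists extend to -4.73 on the left, and the smooth muscle and capsule list lies to the right with a median of 0.83.

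On the other side, genes of the capsule and of contractile cells were higher in flight. Of 12 genes in the smooth muscle and capsule list 8 were called higher and none lower, beside 1.15% higher among all genes. All 12 had positive log2 fold changes (median 0.83, all with an unadjusted p under 0.05), and in 6 of 12 the groups did not overlap, as in 0.773% of all genes with FL_WT above GC_WT. Without flight mice 06 and 08 the median was 0.75 and 2 genes, Acta2 and Myh11, were still called. Leaving out 1 library gave 3 to 9 called genes, with 3 when flight mouse 08 was out, 4 when ground mouse 03 was out and 9 when flight mouse 10 was out.

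Acta2 (chromosome 19, 34241090-34255590) encodes smooth muscle actin. Its level was 75.6 to 116 TPM (median 95.0) in GC_WT and 125 to 218 TPM (median 184) in FL_WT. Every FL_WT mouse lay above every GC_WT mouse, with flight mouse 10 the lowest of FL_WT and flight mouse 08 the highest. The log2 fold change was 0.92 ± 0.13 (edgeR adjusted p = 0.00103), or 1.89-fold. Myh11, smooth muscle myosin, was at 21.4 to 30.2 TPM in GC_WT and 31.5 to 45.8 TPM in FL_WT (log2 fold change 0.60 ± 0.096, edgeR adjusted p = 0.00259). Actg2, enteric smooth muscle actin, was at 7.97 to 12.5 TPM in GC_WT and 13.9 to 19.8 TPM in FL_WT (0.74 ± 0.14, edgeR adjusted p = 0.00665). The contractile genes Cnn1, Tagln and Myl9 were called with log2 fold changes of 1.02, 0.60 and 0.52, and Pdlim3, a protein of actin filaments, with 0.92 ± 0.14.

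The mesothelium that covers the capsule is marked by uroplakin 3B, mesothelin and WT1. Upk3b was at 0.61, 1.06, 2.33, 2.13, 1.22 and 1.70 TPM in ground mice 03, 05, 06, 07, 08 and 10. It was at 6.79, 5.92, 5.28, 5.13, 6.75 and 3.66 TPM in flight mice 03, 05, 06, 07, 08 and 10, all above the ground mice. Its log2 fold change was the largest of the named higher genes at 1.88 ± 0.41 (edgeR adjusted p = 0.0215). The Upk3b call was lost under 4 of 20 alternatives, among them the fit without flight mice 06 and 08 (edgeR adjusted p = 0.105). Wt1 was called with 0.52 (edgeR adjusted p = 0.0231). Msln was at 1.23 to 3.27 TPM in GC_WT and 3.96 to 7.55 TPM in FL_WT, with a log2 fold change of 1.34 that did not pass (edgeR adjusted p = 0.054). Flight mouse 08, with exocrine pancreas transcripts, was highest for the summed smooth muscle and capsule list at 724 TPM. The other FL_WT mice summed to 479 to 648 TPM for this list, with 9.99 to 15.2 TPM of pancreas genes. The GC_WT mice summed to 306 to 473 TPM, with 10.6 to 16.9 TPM of pancreas genes. Flight mouse 10 was lowest of FL_WT at 479 TPM, just above ground mouse 10 at 473 TPM. Whether trimming of the organ at dissection entered these values was not tested.

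**Figure D4:**
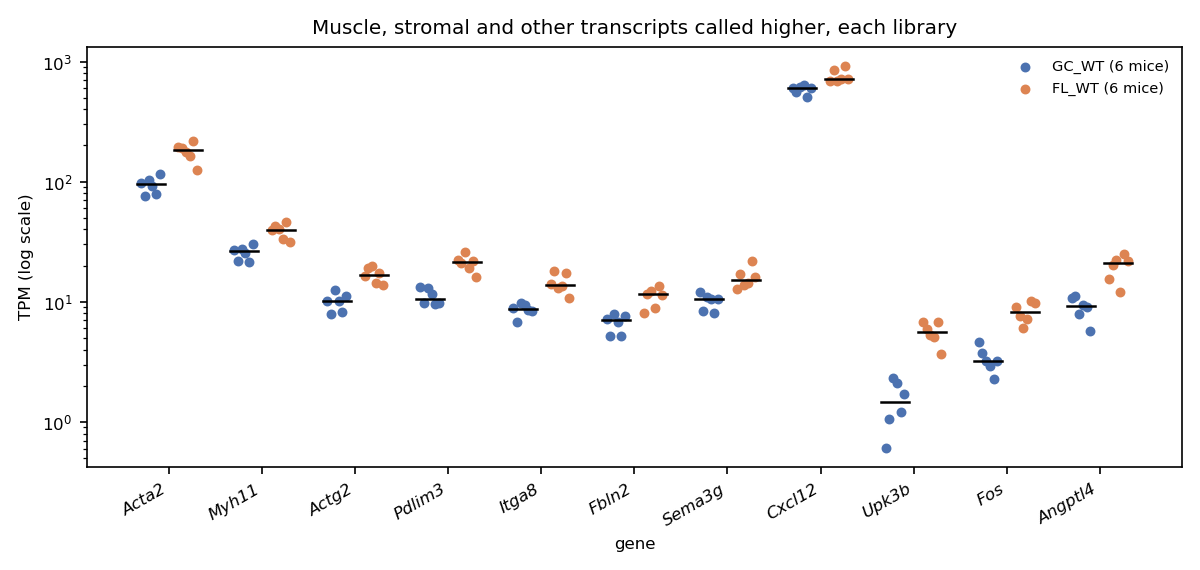
TPM of 11 genes called higher in FL_WT, in each WT spleen library on a log axis, with GC_WT in blue, FL_WT in orange and a bar at the group median. For all 11 genes every FL_WT point lies above every GC_WT point, and for Acta2 the medians are 95.0 and 184 TPM.

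Some stromal and vessel genes were also higher in flight. Of 18 stroma and matrix genes, Col6a1 and Col6a2 were called higher, beside 1.15% higher among all genes. At an unadjusted p under 0.05, 13 of the 18 were higher, beside 1308 of all 16170 genes. The median log2 fold change was 0.23. Col6a1, a chain of collagen VI, was at 13.8 to 15.9 TPM in GC_WT and 14.5 to 22.6 TPM in FL_WT, and flight mouse 10 alone lay within the GC_WT range (0.41 ± 0.11, edgeR adjusted p = 0.0421). The call of Col6a1 was lost under 15 of 20 alternatives and that of Col6a2 under 16. Fbln2, an elastic fibre protein, was at 5.15 to 7.94 TPM in GC_WT and 8.08 to 13.5 TPM in FL_WT (0.72 ± 0.12, edgeR adjusted p = 0.0042). Itga8, an integrin of mesenchymal and contractile cells, was at 6.82 to 9.78 TPM in GC_WT and 10.7 to 17.9 TPM in FL_WT (0.74 ± 0.15, edgeR adjusted p = 0.0145). The transcription factor genes Tcf21, Nkx2-3 and Nkx2-5, which are needed for spleen formation, were chosen after their values were seen. They were called higher with log2 fold changes of 0.50, 0.37 and 0.50, at mean levels in FL_WT of 125, 22.6 and 11.5 TPM.

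Of 11 lymphoid stroma genes 2 were called higher, beside 1.15% higher among all genes. Cxcl12, the chemokine of reticular niches that holds progenitors and plasma cells, was at 510 to 642 TPM in GC_WT and 683 to 916 TPM in FL_WT (0.38 ± 0.082, edgeR adjusted p = 0.0207), a call lost under 7 of 20 alternatives. Ltbr, the lymphotoxin beta receptor, was at 22.9 to 26.3 TPM in GC_WT and 27.9 to 33.0 TPM in FL_WT (0.29 ± 0.043, edgeR adjusted p = 0.00132). Neither gene overlapped between groups. Of 12 endothelial genes 2 were called higher, beside the same 1.15% of all genes, and the list median was 0.21. They were Stab1, a scavenger receptor of sinusoids, and Gpihbp1, which carries lipoprotein lipase across capillaries, with 0.40 and 0.48. The Stab1 call was lost under 7 of 20 alternatives and the Gpihbp1 call under 14, and without flight mice 06 and 08 no gene of the list was called and the median was 0.09. Sema3g, a semaphorin of arterial endothelium, was at 8.0 to 12.1 TPM in GC_WT and 12.8 to 21.8 TPM in FL_WT (0.66 ± 0.097, edgeR adjusted p = 0.00132).

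Fos and Angptl4 were among the 11 genes higher by 1 or more on the log2 scale. Fos, an immediate early factor induced within minutes of a stimulus, was at 2.28 to 4.60 TPM in GC_WT and 6.11 to 10.2 TPM in FL_WT without overlap (1.31 ± 0.22, edgeR adjusted p = 0.00345, 2.49-fold). It was the only gene that edgeR called of 17 in the immediate early list, whose median was 0.15, and DESeq2 called 3 higher. Angptl4, an inhibitor of lipoprotein lipase that rises in fasting, was at 5.67 to 11.1 TPM in GC_WT and 12.0 to 24.9 TPM in FL_WT (1.11 ± 0.19, edgeR adjusted p = 0.0042). Flight mouse 06 was at 22.4 TPM, below flight mouse 08. Without flight mice 06 and 08 the log2 fold change of Angptl4 was 0.95 with an edgeR adjusted p of 0.0671, and that of Fos was 1.33 with 0.0282. Spock2, Cpe and Lrg1 completed the 12 largest higher changes without overlap, at 0.82, 0.81 and 0.68, with calls lost under 1, 7 and 9 of 20 alternatives.

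B cell genes were near the median of all genes, with 9 of 15 below 0, while 17 of 18 T cell genes were below 0. Of all 16170 genes, 7919 were below 0. None of these B cell and T cell genes was called by edgeR, DESeq2 or limma, while edgeR called 2.26% of all genes. The medians were -0.01 and -0.11, beside 0.003 over all genes. At an unadjusted p under 0.05 no B cell gene and 4 T cell genes were lower. Cd8a, the co-receptor of cytotoxic T cells, was at 75.6 to 83.7 TPM in GC_WT and 62.8 to 82.3 TPM in FL_WT (-0.12 ± 0.053, edgeR adjusted p = 0.226). In the NK and cytotoxic list, 2 of 12 genes were called lower, beside 1.11% lower among all genes, and 11 of 12 were below 0. Prf1, which encodes perforin, was at 20.6 to 26.2 TPM in GC_WT and 18.0 to 20.3 TPM in FL_WT (-0.28 ± 0.062, edgeR adjusted p = 0.0235). The Prf1 call was lost under 5 of 20 alternatives. Ccl5, a chemokine of activated T and NK cells, was at 192 to 233 TPM in GC_WT and 145 to 198 TPM in FL_WT (-0.35 ± 0.076, edgeR adjusted p = 0.0187). In the dendritic cell and MHC class II list, 2 of 15 were called lower, beside the same 1.11% of all genes, and 14 of 15 were below 0. Siglech, a marker of plasmacytoid dendritic cells, was at 33.1 to 59.0 TPM in GC_WT and 21.0 to 34.5 TPM in FL_WT (-0.60 ± 0.15, edgeR adjusted p = 0.0344), and Ciita, the activator of MHC class II genes, differed by -0.17 (edgeR adjusted p = 0.0432). The Siglech call was lost under 10 of 20 alternatives and the Ciita call under 13.

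Macrophage and plasma cell lists had no call by edgeR, DESeq2 or limma, while edgeR called 2.26% of all genes. At an unadjusted p under 0.05, 2 genes of these lists were higher and 3 lower. The red pulp macrophage and iron genes had a median of 0.04, the marginal zone macrophage genes 0.06 and the 19 plasma cell and germinal centre genes -0.03. Neutrophil genes split within the list, where edgeR called none of 17, 4 were higher and 7 lower at an unadjusted p under 0.05, and DESeq2 called 2 higher and 3 lower. The granule genes Ngp and Ltf had negative values, at -2.29 (edgeR adjusted p = 0.0506) and -2.42 (edgeR adjusted p = 0.0556). The mature neutrophil genes Csf3r and Retnlg had 0.64 and 1.12 (edgeR adjusted p = 0.0761 and 0.0788). Ground mouse 05 held 231 TPM of Ngp and 90.0 TPM of Ltf, while the other ground mice held 13.4 to 39.7 TPM and 3.53 to 8.09 TPM. Without ground mouse 05 the median of the 17 neutrophil genes turned from -0.85 to 0.31.

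Stress and defence lists were examined because Nrf2 is the factor that the series varies. Nfe2l2, which encodes Nrf2, was at 73.1 to 85.1 TPM in GC_WT and 73.9 to 86.7 TPM in FL_WT, and the groups overlapped (0.05 ± 0.039, edgeR adjusted p = 0.559). None of 24 Nrf2 target genes was called by edgeR or limma, and DESeq2 called 1 higher. EdgeR called 2.26% of all genes, so having no call does not set a list of this length apart. The median log2 fold change of the targets was 0.05. Of the 24, 18 were above 0, a larger share than the 8242 of all 16170 genes, and no set test was run. At an unadjusted p under 0.05, 2 were higher and 1 lower. Gstm1, a glutathione transferase, had 0.24 ± 0.071 (edgeR adjusted p = 0.0788) and Gsr, glutathione reductase, 0.23 ± 0.073 (edgeR adjusted p = 0.0902). No gene was called among 24 interferon stimulated genes (median 0.10), 15 glucocorticoid response genes (-0.02), 16 p53 targets (-0.03), 18 heat shock genes (-0.01), 17 ER chaperone genes (0.05) or 18 clock genes (0.11). DESeq2 and limma called none there either. At an unadjusted p under 0.05, 3 interferon genes were higher and 1 lower, and 2 clock genes were higher and 1 lower. Each other list had at most 2 in a direction. Over all 16170 genes, 1308 were higher and 1433 lower at this threshold. Hspb1, a small heat shock protein, was at 19.2 to 31.5 TPM in GC_WT and 21.2 to 60.4 TPM in FL_WT (0.78 ± 0.27, edgeR adjusted p = 0.118).

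Liver and length differences accompanied the lower calls. Of 11 tested hepatocyte genes 5 (Alb, Apoa1, Apoa5, Kng1 and Mup1) were called lower, and Alb was at 137 TPM in ground mouse 03, 51.8 TPM in ground mouse 07 and 13.2 to 34.5 TPM in the other 10 libraries. DESeq2 called 10 of the 11. Without ground mouse 03 the median log2 fold change of the hepatocyte list was -0.93, beside -1.56 with it, and edgeR called none of 10, as it did of the tested genes without flight mouse 03, 05, 07 or 08 or ground mouse 05 or 07. The called lower genes outside the erythroid lists numbered 160, with a median of the longest transcript of 6080 nt, beside 3141 nt for all tested genes and 3662.5 nt for the called higher genes. They included Ptprc, the common leukocyte antigen (log2 fold change -0.19, edgeR adjusted p = 0.0306). In each library, the median deviation of the longest 20% of genes from that of the shortest 20% was -0.053 to 0.024 on the log2 scale in FL_WT and -0.0067 to 0.054 in GC_WT. The part of length in the lower calls was not tested.

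The same genes were read in Nrf2-KO spleens, whose mice are other animals. There 83 genes were called lower (0.513%) and 25 higher (0.155%) between FL_KO and GC_KO. Of the 59 erythroid genes 29 were called lower in FL_KO, with a median log2 fold change of -0.99 beside -0.49 in WT. Slc4a1 had -5.10 ± 0.77 in Nrf2-KO and -4.73 ± 0.74 in WT, and Alas2 had -3.01 ± 0.43 and -2.57 ± 0.40. Klf1 was called in Nrf2-KO (-2.64 ± 0.47, edgeR adjusted p = 0.00668) and not in WT (-1.36 ± 0.44), and the interaction had an unadjusted p of 0.0602. Of the 12 smooth muscle and capsule genes none was called in FL_KO, with a median of 0.38 beside 0.83 in WT. Acta2 had 0.47 ± 0.13 in Nrf2-KO (edgeR adjusted p = 0.105) and 0.92 ± 0.13 in WT, with an unadjusted interaction p of 0.0211 and an adjusted one of 0.999. Fos was called in both genotypes, at 1.05 ± 0.21 and 1.31 ± 0.22.

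The flight response was not shown to differ between genotypes. The interaction of flight and genotype gave 0 called genes with edgeR, DESeq2 and limma, and 643 of 16170 genes had an unadjusted p under 0.05 with edgeR. With 5 or 6 mice per group this does not show that both genotypes responded alike. Prf1 had the smallest interaction p of the named genes, with -0.28 ± 0.062 in WT and 0.08 ± 0.065 in Nrf2-KO (edgeR unadjusted p = 0.000637 and adjusted p = 0.999).

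**Figure D5:**
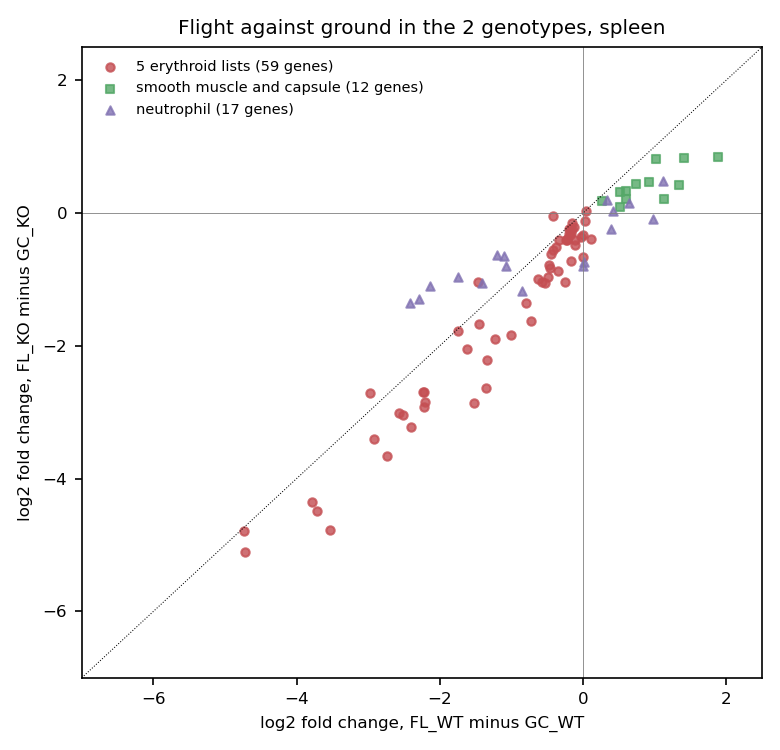
Log2 fold change of flight minus ground in WT (x axis) and Nrf2-KO (y axis) spleen for the members of 3 groups of lists, with a dotted line where both are equal. Erythroid genes extend to -4.73 in WT and to -5.10 in Nrf2-KO, while the 12 smooth muscle and capsule genes are positive on both axes.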

How the data were processed

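Poly(A) RNA of 12 WT spleens (6 FL_WT, 6 GC_WT) was compared. Libraries were strand-specific and read from one end (HiSeq2500). The submitters' notes name STAR 2.6.1, RSEM 1.3.1, mm10 and GENCODE vM20. RSEM output for 54752 genes was deposited, namely expected counts, in which a read that matches several genes is shared among them, and TPM. The authors also normalized TPM in other software and excluded genes of low TPM, but the deposited TPM columns hold all 54752 genes. The 192 FPKM columns were left aside. The strand setting of counting is not given in the sources used here, so overlapping genes on opposite strands may share reads.

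Expected counts were rounded and fitted in R 4.3.3 with edgeR 4.0.16 (filterByExpr, TMM, quasi-likelihood test) over 23 spleen libraries in 4 groups. A gene was called at a Benjamini-Hochberg adjusted p under 0.05 over 16170 genes. A fold is 2 to the power of the fitted log2 fold change, and all values per library are TPM. The SE of a log2 fold change was worked back from edgeR's test, as its absolute value divided by the square root of the F statistic. It therefore rests on the spread shared by all 23 libraries. The alternatives used DESeq2 1.42.0, limma 3.58.1 on log2(TPM + 1) for genes with a mean of at least 5 TPM in at least 1 group, RLE factors, every gene with a read, FL04 added, WT libraries alone, the mouse number as a block, and libraries left out. The count of smooth muscle and capsule genes was added after the data were seen. The scripts were tested on simulated data. Coordinates are those of GENCODE vM21 on GRCm38 and start regions those of RefSeq.

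Named genes were the 12 largest changes per direction among called genes without overlap and with a mean of at least 5 TPM, leaving out the pancreas and white fat lists, then up to 3 called members per list, or up to 2 with the smallest p where none was called, plus Nfe2l2 and the haemoglobin list. Some genes that the rule names are not reported here. Further members are named to fill out a list, and genes outside the rule and lists are marked as such. The members and the 33 gene lists were chosen with earlier results of these data known. The mouse numbers were not used as pairs in the main fit. Over all tested genes, the correlation of same-numbered deviations was above 0.1 in 1 of 6 pairs. This does not exclude an order shared by some genes. Circadian clock sums were highest in mouse 03 and lowest in mouse 10 of both groups. They were 402 and 277 TPM in FL_WT, and 376 and 270 TPM in GC_WT. What the numbers stand for was not tested. The labels say only that each sample is a mouse, and p-values measure the spread between mice of a group.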

Additional observations from a re-analysis of the deposited data

Results flagged for a closer look

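In groups of 6, a library was set apart where its gap to the next value exceeded Dixon's critical share of the group's range at the 95% level, in the named genes, marker lists and depth. Chance flags about 1 in 20 groups, and 12 of 166 gene and group pairs were so marked. The interaction of flight and genotype gave no call and so added nothing.

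Several of these libraries held markers of other tissues. The exocrine pancreas list summed to 1244 TPM in flight mouse 08, beside a median of 12.9 TPM in the other FL_WT mice, and Ctrl (55.1 TPM) and Cela1 (67.6 TPM), both pancreatic proteases, were highest there too. The white fat list summed to 356 TPM in flight mouse 06 beside 179.6 TPM in the others, with Plin4, a lipid droplet protein, at 3.96 TPM. The hepatocyte list summed to 342.6 TPM in ground mouse 03. Flight mouse 06 was marked for this list within FL_WT only, at 71.2 TPM, which is below the GC_WT median of 73.4 TPM. The skeletal muscle list summed to 22.99 TPM in ground mouse 07, beside 10.4 TPM in the other GC_WT mice.

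Neutrophil transcripts were high in ground mouse 05, where the list summed to 952 TPM beside 188 TPM in the other GC_WT mice, with Ngp at 231 TPM and Ltf at 90.0 TPM (89.96). Ground mouse 08 stood apart for Klf1 (14.7 TPM beside 3.87), Siglech (59.0 TPM beside 38.5) and Cd5l, a macrophage gene (171 TPM beside 89.5). Within GC_WT, ground mouse 10 had the lowest T cell sum (1384 TPM beside 1695.5) and the highest Lpl (20.95 TPM). Ground mouse 06 had the highest Hspb1 in its group (31.5 TPM). In FL_WT, flight mouse 10 was high for Cenpe (6.21 TPM beside 3.82) and flight mouse 08 for Bmp4 (20.6 TPM beside 18.3).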

How the results depend on the processing

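Of 40 named genes that were called, 15 stayed past the threshold under all 20 alternatives, among them Acta2, Alas2, Fos, Hba-a2, Hbb-bs, Hbb-bt, Ltbr, Myb, Myh11, Pdlim3, Sema3g, Slc4a1 and Trim10, and no called gene changed direction. RLE factors, FL04 and the fit of WT libraries alone kept every count within 1.5 times. The numbers of higher and lower genes (186 and 180) were 311 and 381 with DESeq2, 110 and 68 without a filter, where 30794 genes were tested, 58 and 29 with limma, and 24 and 16 without flight mice 06 and 08, where fewer samples were left. Erythroid calls (20) were 11 with limma and 7 without those mice, and smooth muscle and capsule calls (8) were 5 and 2. The replicate block on mouse number gave 147 higher and 103 lower genes, of which 104 and 78 were also called without it, and 5 smooth muscle and capsule genes. With the block, 2 circadian clock genes, 1 glucocorticoid response gene and 1 Nrf2 target were called higher. Same-numbered deviations correlated by -0.071 to 0.119 over all tested genes.

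With 1 library left out, 59 to 288 genes were higher, 34 to 506 lower, 13 to 23 erythroid, 3 to 9 smooth muscle and capsule, 0 to 1 replication and mitosis, and 0 for the interaction. Higher counts moved by over 1.5 times without flight mice 03 (107), 05 (74), 06 (81), 08 (59) and 10 (288) and ground mice 03 (73), 05 (89), 06 (116) and 08 (85). Lower counts did so without flight mice 03 (51), 05 (49), 06 (34), 07 (89), 08 (36) and 10 (506) and ground mice 03 (49), 05 (89), 06 (78), 07 (97) and 08 (62). Erythroid calls were 13 without flight mice 03, 05, 06, 07 or 08 or ground mice 03 or 08. Smooth muscle and capsule calls were 3 without flight mouse 08, 4 without ground mouse 03 and 5 without flight mouse 06 or ground mice 05 or 08. The cause was not tested. Uncalled genes that turned were Ctrl (-0.293 without flight mice 06 and 08, and -0.328, without flight mouse 08, to 1.894 over single mice left out), Cela1 (-0.004, without flight mouse 08, to 1.266) and Cd5l (-0.273 to 0.024, the latter without ground mouse 08). Genes near 1 TPM, such as Epb42 in FL_WT, rest on few reads at this depth.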

Other observations

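Genes outside every list also stood among the 32 genes that were lower by 1 or more on the log2 scale, all chosen here after their values were seen. Hemgn, a nuclear protein of blood progenitors and erythroblasts, was at 7.05 ± 6.65 TPM (SD, n = 6) in GC_WT and 0.830 ± 0.475 TPM in FL_WT (log2 fold change -3.09, edgeR adjusted p = 0.0192). Btnl10 had a log2 fold change of -4.0 (edgeR adjusted p = 0.0227), Ypel4 -3.14 (edgeR adjusted p = 0.0145) and Slfn14 -2.26 (edgeR adjusted p = 0.0243), and all 3 were called lower in Nrf2-KO spleen too, with -5.68, -3.20 and -2.39.

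Among the 11 genes higher by 1 or more, Prg4, the lubricin of joint and mesothelial surfaces, was at 0.917 ± 0.470 TPM in GC_WT and 2.80 ± 0.663 TPM in FL_WT without overlap (log2 fold change 1.66, edgeR adjusted p = 0.0129). In Nrf2-KO spleen Prg4 had a value of -0.08, and the difference between genotypes did not pass (edgeR adjusted p = 0.999). Clec4d, a C-type lectin of myeloid cells, had 1.13 (edgeR adjusted p = 0.0342) and Arg2, the mitochondrial arginase, 1.23 (edgeR adjusted p = 0.0432), and their values in Nrf2-KO spleen were 0.26 and -0.01.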
